A study of Mus musculus with 11 samples.

Results

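Genes of the Notch pathway were followed through the tubular, endothelial and stromal cells of fibrotic and control mouse kidneys. The 10 genes were chosen by symbol from 28692 measured genes. They are the receptor genes Notch1, Notch2, Notch3 and Notch4, the ligand genes Jag1, Jag2 and Dll4, and the target genes Hes1, Hey1 and Heyl. Single-cell RNA was measured on the 10x Chromium 3′ platform in 11 libraries of adult male C57Bl/6 mice, which were 10 weeks old when the injuries were made. Control libraries (n = 5) came from kidneys of naive mice matched for age, and their labels fall into 3 sets, Ctrl (1 library), N (2, normal) and AN (2, additional normal). Unilateral ischaemia-reperfusion (UIR, n = 3) was made by clamping the left renal pedicle for 30 min, and unilateral ureteral obstruction (UUO, n = 3) by permanent ligation of the left ureter. Both injured kidneys were taken at day 28. The study's methods count 5 naive mice and 3 mice per model, but no label ties a library to a mouse, so p-values measure only the spread between these libraries. Preparation batches are not given in the sources used here, and the 3 control sets are read from the labels alone, so batch and injury cannot be told apart.

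Notch receptors are single-pass membrane proteins that are switched on by a ligand on a neighbouring cell. Ligand binding lets ADAM proteases and then the γ-secretase complex cut the receptor, and the freed intracellular domain enters the nucleus, joins the DNA-binding protein RBPJ and turns on repressor genes of the Hes and Hey families. In the developing kidney Notch2 is needed for proximal nephron fate, and in the adult collecting duct Notch signals keep principal cells apart from intercalated cells. Dll4 and Notch4 are known as endothelial genes, Jag1 is also an arterial ligand, and Notch3 is the receptor of vascular smooth muscle and pericytes.

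Promoter sequence from RefSeq (GRCm38.p6) was at hand for 7 of the 10 genes, but not for the targets Hes1, Hey1 and Heyl. The 250 bases before each start were read. The 3 genes shown are Notch1, which was called in the most tubular classes, Notch3, which had no UMI in control loop of Henle cells, and Dll4, the ligand that changed in the endothelium. Capitals mark GC boxes (GGGCGG, or CCGCCC on the other strand). Notch1 (chr2:26503823-26504072, minus strand), Notch3 (chr17:32166891-32167140, minus strand) and Dll4 (chr2:119325534-119325783, plus strand) read, 5′ to 3′ on the gene's strand:
Notch1: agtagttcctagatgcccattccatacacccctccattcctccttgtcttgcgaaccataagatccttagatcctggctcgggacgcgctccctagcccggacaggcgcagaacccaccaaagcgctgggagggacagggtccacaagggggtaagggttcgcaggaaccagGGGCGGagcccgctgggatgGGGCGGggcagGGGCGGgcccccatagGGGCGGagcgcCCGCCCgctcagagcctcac
Notch3: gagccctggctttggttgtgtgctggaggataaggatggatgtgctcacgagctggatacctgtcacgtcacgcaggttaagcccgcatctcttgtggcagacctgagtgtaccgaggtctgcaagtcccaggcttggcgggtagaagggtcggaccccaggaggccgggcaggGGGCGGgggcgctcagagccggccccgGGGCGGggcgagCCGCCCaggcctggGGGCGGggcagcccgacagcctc
Dll4: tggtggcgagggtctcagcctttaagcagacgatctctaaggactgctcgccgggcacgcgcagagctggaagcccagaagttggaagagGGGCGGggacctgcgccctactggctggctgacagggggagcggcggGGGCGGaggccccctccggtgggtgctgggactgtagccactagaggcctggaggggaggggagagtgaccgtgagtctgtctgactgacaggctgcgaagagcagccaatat
GC boxes stood in 5 of the 7 promoters, with 5 matches in Notch1, 5 in Notch2, 4 in Notch3, 5 in Jag2 and 2 in Dll4. Among all 32851 promoters of the table, 32.7% held one. The core letters bound by RBPJ (TGGGAA, or TTCCCA on the other strand) were in 0 of the 7 windows and in 21.6% of all promoters. No window of a target gene is among the 7. The matches are letters in a window and were not tested as sites.

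After filtering, 40579 of 86470 called barcodes were kept, 10270 of 44271 from control, 16940 of 26732 from UIR and 13369 of 15467 from UUO libraries. The mitochondrial limit alone removed 57.0 to 78.8% of the barcodes of a control library, 23.8 to 37.2% in UIR and 3.15 to 8.03% in UUO, and limits of 15% and 50% were tried as alternatives. Libraries held between 49503312 and 117043590 UMIs (unique molecular identifiers, each standing for 1 captured RNA molecule), with the UUO libraries lowest at 49503312 to 60918546. Median mitochondrial content of kept cells was 10.3 to 21.3% in control, 10 to 15.4% in UIR and 5.6 to 6.7% in UUO libraries. The unnumbered library of each group stood apart from the numbered ones, with a chi-square per degree of freedom of 6.62 to 17.7 in the endothelium against 1.98 to 4.07 between numbered libraries. Any 2 libraries shared at most 19 cell barcodes.

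Clusters were named from marker genes and the names below stand for cells like those named. They were proximal tubule (PT, 9681 cells), loop of Henle (LOH, 2382), distal tubule (DT, 1243), collecting duct principal (CD-P, 868) and intercalated (CD-I, 946) cells, and failed-repair tubular epithelial cells (frTEC, 829). Endothelium held glomerular (EC-glom, 1409), peritubular capillary (EC-ptc, 1080) and arterial (EC-art, 817) cells, and stroma held Fibro 1 (652), Fibro 2 (471) and Fibro 3 (300). Defining markers led most clusters, such as Slc12a1 and Umod in LOH or Aqp2 and Fxyd4 in CD-P. No marker of its list was among the 10 leading genes of 2 of the 3 EC-art clusters, of the frTEC cluster that held most control cells or of a PT cluster (1841 control, 440 UIR and 22 UUO cells), which were named by marker score alone. Levels are given in CPM (UMIs of the gene scaled to 1000000 UMIs of the class in a library) for classes with at least 20 cells in a library.

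The receptors differed in where they were highest. Notch1 was highest in the endothelium in every group, with a control median of 310.1 CPM in EC-glom, 217 CPM in EC-ptc and 209.5 CPM in EC-art, whose ranges overlapped. The next class, Fibro 3, stood below these ranges at 81.3 CPM, and the control tubules below it at 1.10 CPM in PT and 9.31 to 17.9 CPM elsewhere. Notch4 was an endothelial transcript with a control median of 243.4 CPM in EC-art, above every library of EC-ptc (105.9 CPM) and EC-glom (101.6 CPM), with medians of at most 10.4 CPM outside the endothelium. Notch3 was stromal. Its median was 103.4 CPM in control Fibro 3, and in the injured kidneys Fibro 2, the contractile stroma, stood above all other classes at 524.1 CPM in UIR and 639.8 CPM in UUO. Notch2 had its highest control medians in tubular classes, 31.1 CPM in CD-P and 29.5 CPM in frTEC, which overlapped, and was at 0 in EC-art and Fibro 3. Its median in Fibro 2 was 95.6 CPM in UIR and 85.4 CPM in UUO.

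Ligands and targets were also ordered by class. Jag1 led in EC-art, with medians of 330.3, 340.7 and 388.9 CPM in control, UIR and UUO, followed in control by frTEC (206.7 CPM) and CD-I (101.3 CPM) and in both injuries by Fibro 2. Jag2 was largely arterial, at 130.9 CPM in control EC-art, while its median was 0 in all control tubular classes. Dll4 was highest in control in EC-ptc (112.4 CPM) and EC-glom (97.0 CPM), whose ranges overlapped, and in both injuries EC-glom stood above all other classes. Hes1 was seen in every class, with its lowest median in PT (13.1 CPM in control) and 87.3 to 300.9 CPM in the other control classes. Hey1 was highest in EC-glom and EC-art, with control medians of 32.3 and 14.5 CPM and overlapping ranges, and its control median was 0 in every tubular class. In EC-ptc it was at 6.61 CPM (median of 0 to 29.6 CPM) in control and at 0 in all injured libraries. Heyl followed Notch3 into the stroma, at 92.1 CPM in UIR Fibro 2 and 93.0 CPM in UUO Fibro 2. The heat map of median levels shows these places.

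**Figure D1:**
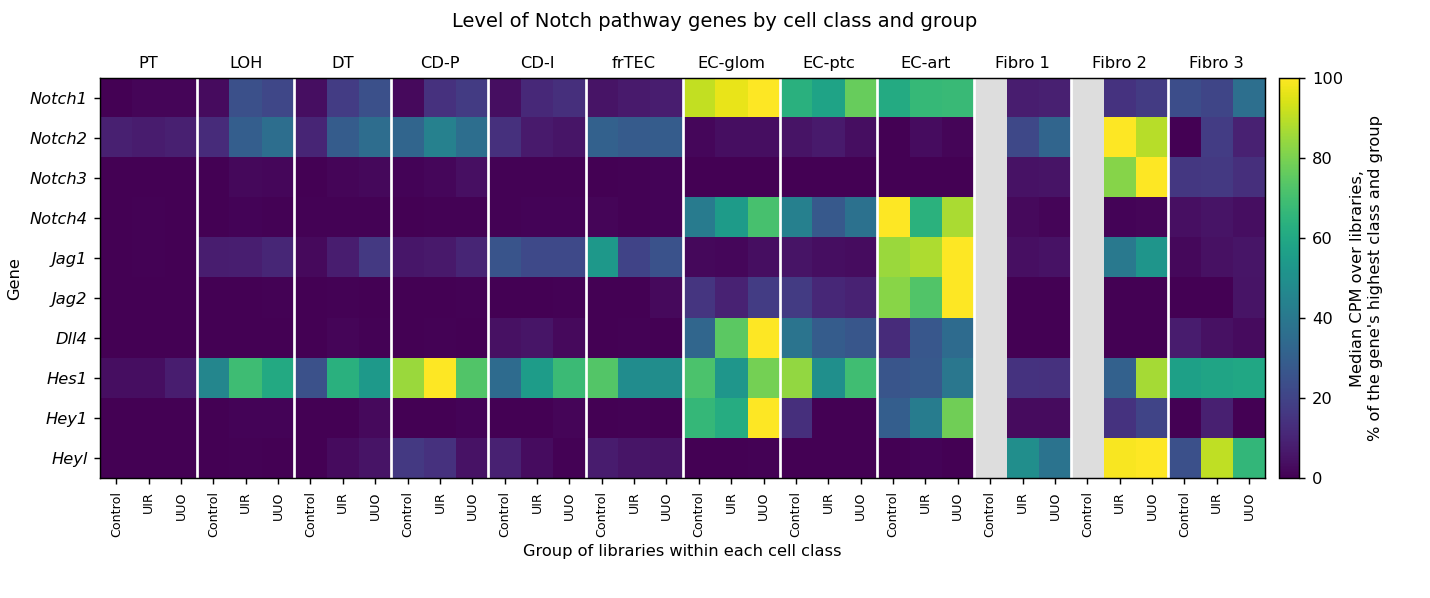
Median level of the 10 genes over libraries in 12 cell classes of control, UIR and UUO kidneys, each gene scaled to its highest class and group (percent), with grey where no library had enough cells. Notch1, Notch4 and Dll4 are highest in endothelial columns, Jag2 in EC-art and Hey1 in EC-glom and EC-art, while Notch3 and Heyl peak in Fibro 2.

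Levels were compared between groups by edgeR's quasi-likelihood test on UMIs summed per library and class, and p-values were adjusted by Benjamini-Hochberg across every gene tested in that class. A gene passed, or was called, below an adjusted p of 0.05. Over the 9 classes that could be tested in UIR against control, 15 of 49 tests passed (13 higher, 2 lower), and over 10 classes in UUO against control 20 of 54 (17 higher, 3 lower). Fibro 1 and Fibro 2 had no control pool, and Fibro 3 had too few UIR pools. With the N control libraries alone these counts were 8 and 11, and with the AN libraries alone 9 and 13. Tubular classes gave 13 of 30 calls in UIR and 16 of 30 in UUO, endothelial classes 2 and 4 of 19. Genes of every kind were also called more often in most tubules, at 1.69 to 37.2% in UIR and 3.55 to 44.3% in UUO, than in endothelium, at 1.47 to 4.83% and 4.88 to 9.76%. The 2 comparisons share their control libraries.

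Notch1 rose in 4 of 6 tubular classes in both injuries. In LOH, the thick ascending limb segment marked by Slc12a1 and Umod, Notch1 was measured at 10.6, 9.27, 5.18, 19.6 and 9.51 CPM in the 5 control libraries. It was at 69.4, 84.0 and 101.3 CPM in UIR and at 51.0, 76.7 and 72.7 CPM in UUO. Every injured library stood above every control library. The log2 fold change was 2.75 ± 0.28 (SE, n = 3 against 5, adjusted p = 3.95e-08, edgeR) in UIR and 2.39 ± 0.29 (adjusted p = 4.16e-07) in UUO.

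Notch3 had no UMI in any of the 5 control LOH libraries. It was at 14.2, 14.9 and 16.7 CPM in UIR and at 12.9, 12.3 and 10.8 CPM in UUO, which is at least 9.99-fold and at least 7.96-fold higher than a floor of 3 UMIs over the control group. The adjusted p was 7.51e-06 in UIR and 2.42e-05 in UUO (edgeR). Markers of stroma were also higher in these pools. Their summed level over 7 genes was 0 to 18.1 CPM in control, 19.3 to 22.4 CPM in UIR and 26.1 to 38.8 CPM in UUO, with 4 of the 7 at 0 in control and none in the injured pools. Notch3 gave 10.5 to 36.7 UMIs for each UMI of Myh11, a smooth muscle myosin, in the injured LOH pools, against 0.115 to 0.191 in Fibro 2. The LOH ratios rest on 1 to 11 Myh11 UMIs per pool. No ratio was taken for Fibro 1 or Fibro 3, which also held Notch3, so RNA from these cells was not tested this way. With tubular cells that held a stromal marker UMI left out, which were 96 of 1334 UIR and 113 of 789 UUO LOH cells, both calls still passed. In empty droplets Notch3 stood at 0.46 to 2.38 CPM in control, 3.05 to 7.84 CPM in UIR and 4.24 to 19.9 CPM in UUO, and both calls also passed after free RNA was subtracted.

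Notch2, the receptor tied to nephron patterning, was at 5.28, 23.2, 15.5, 11.2 and 11.9 CPM in control LOH libraries. It was at 28.4, 34.8 and 26.6 CPM in UIR and at 46.8, 29.1 and 34.5 CPM in UUO, again without overlap with the controls. The log2 fold change was 1.11 ± 0.34 (adjusted p = 0.0144, edgeR) in UIR and 1.41 ± 0.33 (adjusted p = 0.00161) in UUO, and neither passed against the N or AN controls alone or with the numbered libraries only, nor did the UIR value without the Ctrl library. The target Hes1 had log2 fold changes of 0.33 (adjusted p = 0.269) and 0.51 (adjusted p = 0.0752) in LOH, which did not pass. Of 5 Notch genes that passed the filter on low counts in LOH, 3 were higher in UIR, where 30.6% of all 11507 genes were called, and 3 in UUO, where 36.3% were. Their median log2 fold change was 1.11 in UIR and 1.41 in UUO, against 0.07 and 0.06 over all genes. Notch3 among them had no control UMI, so it passed the filter through the injured pools alone and could only come out higher. A list of 11 immediate early and heat shock genes known to respond to tissue dissociation summed to 176.2 to 902 CPM in control LOH, 1323 to 1472 CPM in UIR and 1005 to 1690 CPM in UUO. Of 10 tested, 5 were higher in each injury (Atf3, Jun, Ier2, Junb and Hspa1b), and their part in the LOH results was not tested. Control LOH cells were 98.5% from 1 cluster that held 5.25% of UIR and 0.634% of UUO LOH cells.

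In DT, the segment of the thiazide-sensitive transporter Slc12a3, all 5 Notch genes tested were higher in both injuries. Background was high here, since 37.2% of 10541 genes passed in UIR and 44.3% in UUO. The median over the 5 genes was 1.13 in UIR and 1.95 in UUO on the log2 scale, against 0.06 over all genes in either comparison. Notch3 among them, with 2 control UMIs, passed the filter through the injured pools and could hardly come out lower. Notch1 was at 13.4, 9.51, 21.6, 9.77 and 12.9 CPM in control, at 60.0, 61.0 and 107.6 CPM in UIR and at 83.7, 103.6 and 61.8 CPM in UUO. The injured libraries did not overlap the controls, while UIR and UUO overlapped. Its log2 fold change was 2.11 ± 0.28 (adjusted p = 1.26e-06, edgeR) and 2.18 ± 0.28 (adjusted p = 4.96e-07). Notch3 had 2 UMIs in all controls together and was at 7.69, 9.91 and 11.3 CPM in UIR and at 13.3, 13.6 and 10.9 CPM in UUO. The ratio of pooled levels was 12.9 (exact 95% interval 3.44 to 109.0, counting error only) in UIR and 17.0 (4.56 to 143.2) in UUO, with adjusted p of 0.000281 and 4.11e-05 (edgeR). Stromal markers in DT summed to 0 to 12.9 CPM in control, 24.5 to 106.4 CPM in UIR and 75.2 to 98.8 CPM in UUO, and Notch3 gave 6.67 to 23 UMIs per Myh11 UMI in 5 of the 6 injured pools, on 1 to 3 Myh11 UMIs each, while UUO 1 had 32 Notch3 and 0 Myh11 UMIs. Both calls passed without the cells that held a stromal UMI.

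The ligand Jag1 separated the injuries in DT. It was at 10.0, 19.03, 8.65, 2.44 and 16.2 CPM in control, at 28.8, 33.4 and 31.4 CPM in UIR and at 64.9, 42.0 and 66.5 CPM in UUO, so the 3 groups did not overlap. The log2 fold change was 1.13 ± 0.31 (adjusted p = 0.00565, edgeR) in UIR, 1.95 ± 0.29 (adjusted p = 5.13e-06) in UUO, and 0.82 ± 0.21 (adjusted p = 0.0171) between UUO and UIR. The last passed in 7 of 11 fits that left out 1 library, and was lost without the unnumbered UIR library, UIR 2, the unnumbered UUO library or UUO 2. It was also lost with at least 1000 UMIs per cell, at a clustering resolution of 2 and with the numbered libraries only. The target Hes1 was at 93.6, 63.4, 67.0, 112.4 and 87.3 CPM in control, at 224.8, 185.2 and 231.8 CPM in UIR and at 492.7, 191.1 and 180.5 CPM in UUO. All injured libraries stood above the controls, the unnumbered UUO library by far the most, with log2 fold changes of 0.96 ± 0.26 (adjusted p = 0.00562) and 1.32 ± 0.26 (adjusted p = 0.000188). Notch2 rose by 0.88 ± 0.28 (adjusted p = 0.0169) and 1.17 ± 0.28 (adjusted p = 0.00132), from 6.34 to 17.3 CPM in control to 23.8 to 32.3 CPM in UIR and 28.9 to 44.3 CPM in UUO.

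The cells behind the DT comparison differed. In place of the clusters that held 54.5 and 45.1% of control DT cells stood a cluster with Slc12a3, Klk1 and the injury gene Lcn2 among its leading genes, and it held 73.8% of UIR and 94% of UUO DT cells but 0.44% of control cells. Its marker score was 1.43, near the lower limit for a name, and its 10 leading genes held 1 marker of DT (Slc12a3) and 1 of CD-P (Hsd11b2). Under 3 of 6 other cell choices most UUO cells left the class, and under 2 of these most UIR cells did. DT held 522 UIR and 266 UUO cells, but 330 and 33 with up to 50% mitochondrial UMIs, 120 and 19 with doublets kept (CD-P in UUO then rose from 259 to 526 cells) and 117 and 16 with markers and Notch genes used for clustering. It kept 357 to 457 UIR and 251 to 268 UUO cells at a mitochondrial limit of 15%, with at least 1000 UMIs per cell or at a clustering resolution of 2. The name of the injured DT cells depends on these settings. The dissociation list also summed higher, at 143.7 to 281.1 CPM in control, 538 to 1020 CPM in UIR and 739.7 to 1217 CPM in UUO, and its part in these results was not tested. Against the N controls alone the Jag1, Notch2 and Hes1 calls in UIR and the Notch2 call in UUO were lost, against the AN controls alone Jag1 and Hes1 in UIR. With cells of up to 50% mitochondrial UMIs Jag1 in UIR turned to -0.22, and Notch1, Notch2 and Hes1 in UIR were lost. Jag1 and Hes1 in UIR were also lost at a limit of 15%, and Hes1 with doublets kept, with markers and Notch genes used for clustering and without clusters of a score under 2. Notch2 in UIR was also lost without control AN2 or UIR 1.

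**Figure D2:**
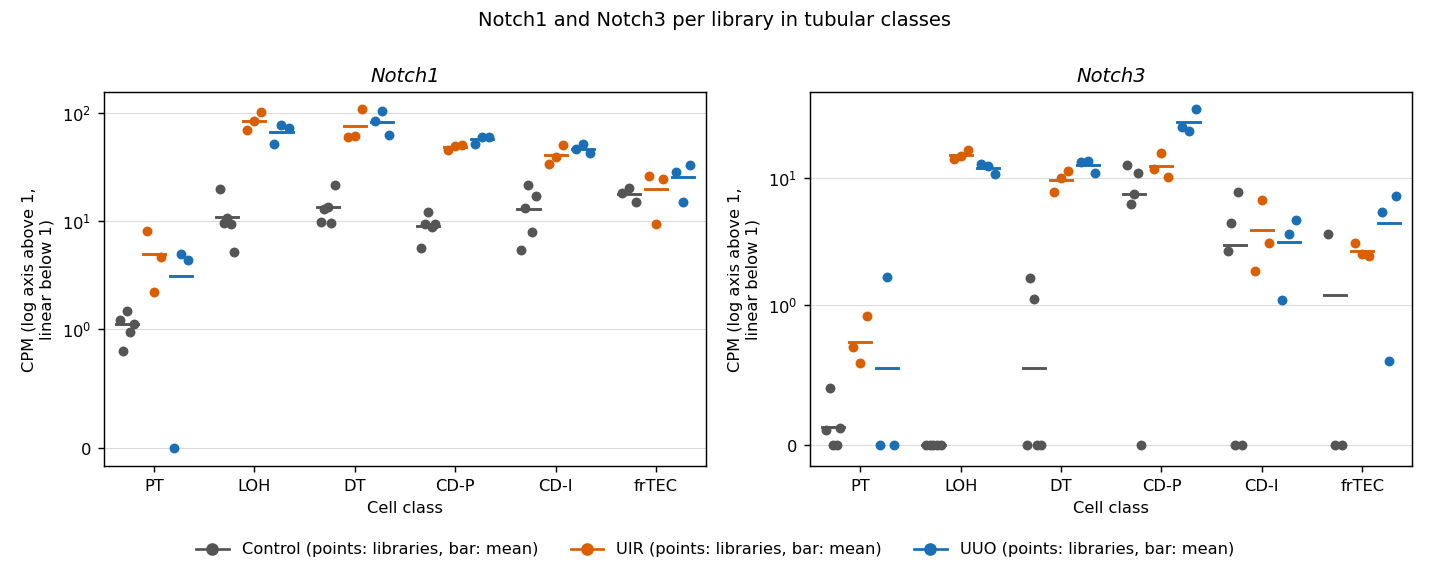
Notch1 and Notch3 in CPM per library (points) with group means (bars) in the 6 tubular classes, on an axis that is logarithmic above 1 CPM and linear below it. In LOH, DT, CD-P and CD-I all injured libraries lie above all controls for Notch1, and Notch3 in LOH is at 0 in the 5 controls and 10.8 to 16.7 CPM in the injured libraries.

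In the collecting duct Notch1 rose in both cell types in both injuries. Jag1 passed in opposite directions in UUO, higher in CD-P and lower in CD-I, and the difference between these classes was not tested. In CD-P, the water-reabsorbing cells, Notch1 was at 12.0, 8.72, 9.31, 5.62 and 9.33 CPM in control, at 45.1, 49.4 and 49.9 CPM in UIR and at 51.1, 59.9 and 60.3 CPM in UUO. No injured library came near the controls, and the log2 fold change was 2.34 ± 0.23 (adjusted p = 1.02e-06, edgeR) and 2.58 ± 0.22 (adjusted p = 4.01e-08). This was the only gene of 6 tested that passed in UIR, a share near the 15.3% of 8856 genes called there. In UUO, with 31.5% called, Notch3 and Jag1 were higher and Heyl was lower as well.

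Notch3 in CD-P was at 7.48, 10.9, 0, 12.6 and 6.22 CPM in control, at 11.7, 15.7 and 10.1 CPM in UIR and at 25.2, 23.3 and 34.8 CPM in UUO. Only the UUO libraries stood clear of the controls (log2 fold change 1.63 ± 0.37, adjusted p = 0.00165, edgeR), and the difference between UUO and UIR, 1.09, did not pass (adjusted p = 0.0607). Stromal markers in CD-P summed to 2.81 to 9.31 CPM in control, 11.7 to 32.7 CPM in UIR and 38.5 to 43.6 CPM in UUO. Cells with a stromal marker UMI were 10 of 297 in control, 26 of 312 in UIR and 42 of 259 in UUO, and the Notch3 call passed with them left out. Of the dissociation list Jun was higher in both injuries and 1 gene lower in UIR and 2 in UUO. Jag1 in CD-P was at 28.4, 13.1, 27.9, 23.9 and 18.7 CPM in control and at 50.4, 32.1 and 40.2 CPM in UUO (0.78 ± 0.25, adjusted p = 0.0200). Heyl was at 23.9, 6.54, 9.31, 16.9 and 15.6 CPM in control and at 10.6, 4.402 and 2.68 CPM in UUO, which overlap (fold change -1.36 ± 0.45 on the log2 scale, adjusted p = 0.0258). The Jag1 and Heyl calls were each lost against the N or AN controls alone. Jag1 was also lost without N1, AN2 or the unnumbered UUO library, with the numbered libraries only and with at least 1000 UMIs per cell. Heyl was lost without Ctrl, AN1, UUO 1 or UUO 2, at a clustering resolution of 2 and with cells that held a stromal UMI left out. Of the control CD-P cells, 99% lay in a cluster that held 57.7% of UIR and 4.63% of UUO cells.

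In CD-I, the acid-base regulating cells, Notch1 was at 21.6, 7.79, 16.8, 5.33 and 13.2 CPM in control, at 33.9, 38.8 and 50.1 CPM in UIR and at 45.9, 51.6 and 42.2 CPM in UUO. All injured libraries stood above the controls, while UIR and UUO overlapped, and the log2 fold change against control was 1.29 ± 0.28 (adjusted p = 0.00321, edgeR) and 1.42 ± 0.29 (adjusted p = 0.000774). Jag1 fell in the same class, from 166.9, 83.1, 172.0, 101.3 and 99.8 CPM in control to 74.3, 87.4 and 86.6 CPM in UIR and 85.2, 77.4 and 93.2 CPM in UUO. The control library N1 lay within the injured range, and the log2 fold change was -0.83 ± 0.19 (adjusted p = 0.00509) and -0.86 ± 0.20 (adjusted p = 0.00285), with neither passing against the N or AN controls alone, nor the UIR value with at least 1000 UMIs per cell or the numbered libraries only. Hes1 rose in UUO, from 88.1 to 149.6 CPM in control to 204.7 to 257.7 CPM (0.60 ± 0.15, adjusted p = 0.00560). Its UIR libraries, at 191.6 to 204.9 CPM, also stood above the controls but did not pass (0.43, adjusted p = 0.0642).

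Notch2 in CD-I fell in UUO, from 10.1, 15.6, 8.39, 13.3 and 16.1 CPM in control to 2.18, 6.45 and 5.28 CPM (-1.71 ± 0.50, adjusted p = 0.0145, edgeR), and was lost without control AN2, against the N or AN controls alone, with the numbered libraries only, with at least 1000 UMIs per cell and with doublets kept. In LOH and DT the same gene had risen. With 14.2% of 9080 genes called in UIR and 23.4% in UUO, 1 of the 5 genes tested was higher and 1 lower in UIR, and 2 were higher and 2 lower in UUO. An upper limit on free RNA, set from markers of other cells, was 32.8 to 100% of UMIs in control CD-I pools, against 9.17 to 19.3% in UIR and 3.8 to 4.39% in UUO. After its subtraction the Hes1 call in UUO was lost (0.42, adjusted p = 0.101), as it was with up to 50% mitochondrial UMIs, while Notch1 and Jag1 passed. The groups drew on different CD-I clusters. A cluster with low UMI numbers, led by Atp6v1g3, Atp6v1c2 and Hmx2, held 62% of control, 41.6% of UIR and 17.6% of UUO CD-I cells. Another, with Slc26a4 and Hmx2 among its leading genes, held 18.6, 10.8 and 3.08%. A cluster with Aqp6, Kit and Slc4a1 among its leading genes held 19.5, 47.6 and 79.3%. The part of this makeup in the CD-I changes was not tested. Dissociation genes summed to 288 to 948.3 CPM in control, 991.6 to 1560 CPM in UIR and 1322 to 2368 CPM in UUO.

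The difference between DT and CD-I in Jag1 was tested itself, over libraries, as the log2 level in DT less that in CD-I. It was 2.15 higher in UIR and 2.94 higher in UUO than in control, in 3 of 3 libraries each (exact permutation test, two-sided, adjusted p = 0.0476 over 8 such tests that were chosen after the values were seen).

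PT cells, which had the lowest Notch1 of all classes, showed a smaller set of changes. Notch1 was at 1.46, 0.968, 1.10, 1.20 and 0.811 CPM in control, at 8.08, 2.19 and 4.61 CPM in UIR and at 0, 4.95 and 4.29 CPM in UUO. All UIR libraries stood above the controls (1.998 ± 0.38, adjusted p = 0.00101, edgeR), a call lost once free RNA was subtracted (1.66, adjusted p = 0.0655). The UUO value was 1.83 ± 0.86 (adjusted p = 0.232, edgeR) and rested on 5 Notch1 UMIs. The unnumbered UUO library, at 0, held 39 PT cells with 36879 UMIs, too few to measure levels this low. Jag1 was at 0.553 to 1.63 CPM in control and 1.76 to 2.78 CPM in UIR (1.29 ± 0.41, adjusted p = 0.0477), and was lost with DESeq2 and without the unnumbered UIR library, UIR 2, the unnumbered UUO library or UUO 1. With the replicate number as a block it did not pass either (adjusted p = 0.0573, edgeR), nor with at least 1000 UMIs per cell, at a clustering resolution of 2 or with cells that held a stromal UMI left out. These are levels of few UMIs, 52 of Notch1 and 45 of Jag1 over all control PT cells. Of 5 genes tested, 2 were higher in UIR, where 10.4% of 11668 genes were called. Of the dissociation list Fos and Egr1 were higher in both injuries. In UUO 0 Notch genes passed by edgeR, with 6.4% of genes called and 1 Notch gene at an unadjusted p under 0.05, while DESeq2 called 0.

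In frTEC, where epithelial and stromal genes are seen together, none of the 4 genes tested passed in either injury by edgeR, with 1.69% of 8447 genes called in UIR and 3.55% in UUO. One of them, Jag1, had an unadjusted p under 0.05 in both, and DESeq2 called 0 in UIR and 0 in UUO. Jag1 was at 166.0, 206.7 and 208.1 CPM in the 3 control libraries with enough cells, at 126.0, 54.3 and 78.3 CPM in UIR and at 97.4, 31.7 and 152.0 CPM in UUO. The injured libraries lay below the controls without overlap, with log2 fold changes of -1.19 ± 0.47 (adjusted p = 0.242) and -1.15 ± 0.48 (adjusted p = 0.247). The groups drew on different frTEC clusters. A cluster led by Aqp1, Fst and Bst1 held 65.9% of the control cells but 13.3% in UIR and 12% in UUO, and a cluster with C3, Slc13a1 and Vcam1 among its leading genes held 12.5, 60 and 53.4%.

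**Figure D3:**
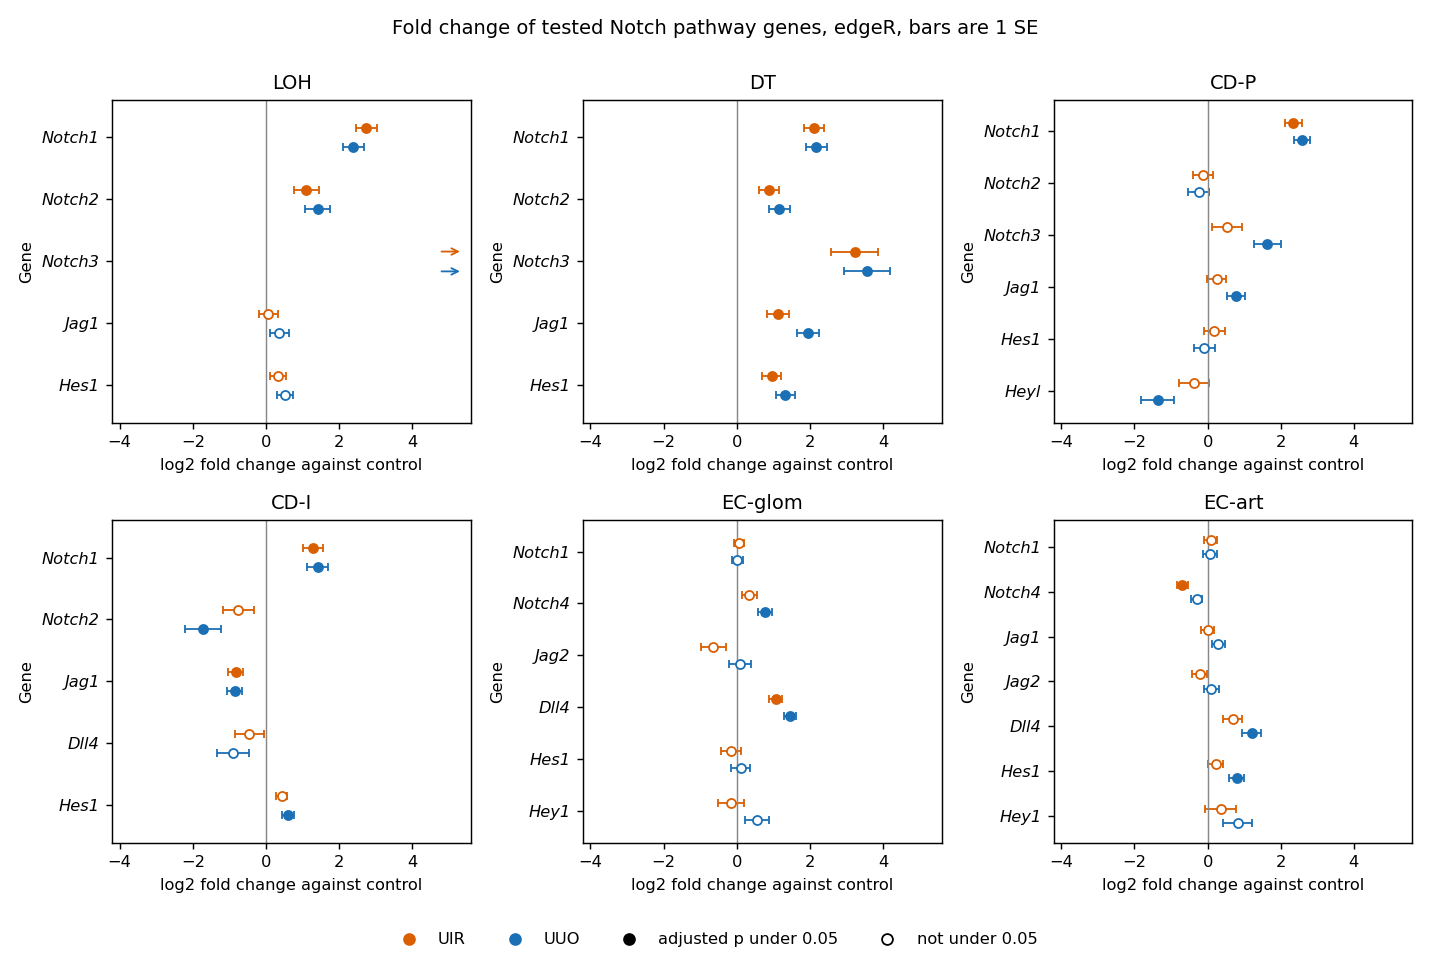
Log2 fold changes of the Notch genes against control in UIR and UUO (bars, 1 SE) in LOH, DT, CD-P, CD-I, EC-glom and EC-art, with filled points for an adjusted p under 0.05 and arrows for Notch3 in LOH, whose controls were all 0. Notch1 lies between 1.29 and 2.75 in the 4 tubular classes and Dll4 at 1.06 and 1.44 in EC-glom.

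In the endothelium the ligand Dll4 rose in EC-glom in both injuries, while the receptor Notch4 was higher in EC-glom in UUO and lower in EC-art in UIR. Dll4, the ligand that endothelial tip cells use to restrain their neighbours, was at 117.0, 102.4, 90.5 and 91.7 CPM in the 4 control libraries with enough EC-glom cells. It was at 233.3, 219.3 and 207.2 CPM in UIR and at 247.9, 292.9 and 350.2 CPM in UUO. All injured libraries stood above all controls, and the log2 fold change was 1.06 ± 0.17 (adjusted p = 0.000582, edgeR) in UIR and 1.44 ± 0.17 (adjusted p = 1.18e-06) in UUO. Both calls passed in each of the 18 alternatives and 11 left-out libraries tried. Leaving out the Ctrl library, which had no EC-glom pool, or tubular cells could not change this fit. Notch4 in EC-glom was at 120.2, 87.4, 65.8 and 115.8 CPM in control, at 133.9, 108.9 and 142.7 CPM in UIR and at 150.0, 172.9 and 212.3 CPM in UUO. Only UUO stood clear of the controls (0.77 ± 0.19, adjusted p = 0.00988), and the call was lost without N2, AN1 or UUO 2 and against the N or AN controls alone.

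Among 6 genes tested in EC-glom, 1 was higher in UIR, where 2.36% of 8019 genes were called, and 2 in UUO, where 9.29% were. The controls were 88.6% from a cluster that held 18.2% of UIR and 1.22% of UUO EC-glom cells. A 7-gene list of stromal markers, some of which endothelial cells also express, summed to 987.4 to 1632 CPM in control, 1619 to 1761 CPM in UIR and 2363 to 3174 CPM in UUO, and its part in these results was not tested. The dissociation list summed to 1028 to 1297 CPM in control, 1241 to 2123 CPM in UIR and 1241 to 1731 CPM in UUO, and 1 of its 7 genes tested, Nr4a1, was higher in both injuries, as it was in EC-art. Dll4 itself was at most 44.8 CPM in any stromal pool.

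In EC-art Notch4 fell in UIR. It was at 245.6, 244.6, 243.4, 239.9 and 220.1 CPM in control and at 155.1, 162.5 and 139.6 CPM in UIR, while UUO was between, at 165.5, 212.4 and 222.9 CPM with 1 library inside the control range. The UIR value was -0.69 ± 0.15 (adjusted p = 0.0133, edgeR), lost without UIR 2, against the N or AN controls alone and at a mitochondrial limit of 15%. Dll4 was at 31.3, 93.8, 21.5, 36.4 and 50.2 CPM in control, at 67.1, 85.0 and 80.0 CPM in UIR and at 98.5, 131.6 and 102.6 CPM in UUO. Only the UUO libraries passed the highest control, N1 (1.20 ± 0.26, adjusted p = 0.00478), and the call was lost against the N controls alone. Hes1 rose in UUO from 62.6, 118.2, 93.1, 98.1 and 61.8 CPM to 184.5, 139.7 and 129.9 CPM (0.80 ± 0.21, adjusted p = 0.0214), lost against the N or AN controls alone, without Ctrl, AN2 or the unnumbered UUO library, with the numbered libraries only and at a mitochondrial limit of 15%. Of 7 genes tested, 1 was lower in UIR (1.47% of 8685 genes called) and 2 were higher in UUO (4.88% called). Jag1 and Jag2, the ligands that mark these cells here, did not pass and stayed in overlapping ranges, 247.2 to 411.7, 312.1 to 362.2 and 346.0 to 507.9 CPM for Jag1 in control, UIR and UUO.

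In EC-ptc none of 6 genes passed by edgeR in UIR (4.83% of 7929 genes called) or UUO (9.76% called), with 2 and 0 at an unadjusted p under 0.05, and DESeq2 called 0 in each. Dll4 here was at 117.0, 77.0, 177.5, 64.1 and 112.4 CPM in control, 66.7 to 87.9 CPM in UIR and 76.9 to 119.0 CPM in UUO, all overlapping. Taken with its sign, the change in Dll4 was higher in EC-glom than in EC-ptc by 1.45 in UIR and 1.70 in UUO, and that in Notch4 higher in EC-glom than in EC-art by 1.06 and 1.15, on the log2 scale and in 3 of 3 libraries each (exact permutation test, two-sided, adjusted p = 0.0476, with 0.0286 the smallest unadjusted p that 3 against 4 libraries allow). These pairs were chosen after the values were seen, so their p-values are a description only. In UIR Notch4 fell in EC-art (-0.69) and did not pass in EC-glom (0.35, adjusted p = 0.573, edgeR). The change in Hes1 in EC-art less that in EC-glom, 0.42 and 0.49, did not pass (adjusted p = 0.343 and 0.0653).

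Over the whole endothelium Dll4 was at 63.5 to 116.5 CPM in control, 116.4 to 145.9 CPM in UIR and 164.0 to 237.2 CPM in UUO. It was the only one of 8 genes that passed in UUO (1.02 ± 0.15, adjusted p = 0.000163, edgeR), where 11.9% of 11131 genes were called. In UIR 0 passed by edgeR with 1.83% called, 2 were at an unadjusted p under 0.05 and DESeq2 called 0. EC-art made up 17.9 to 18.0% of the whole endothelium in UUO and 24.4 to 31.5% in control, which did not pass after adjustment (exact permutation test, two-sided, adjusted p = 0.180 over all shares compared). The whole endothelium also held a cluster without a subtype name, led by Ccl21a and Aplnr (3 control, 16 UIR and 153 UUO cells).

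**Figure D4:**
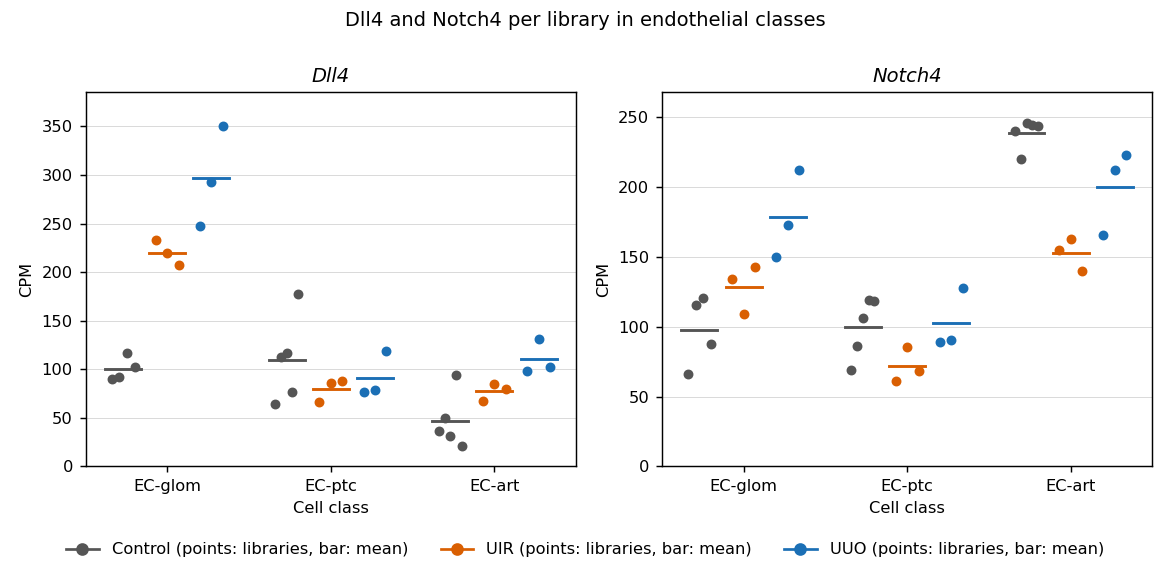
Dll4 and Notch4 in CPM per library (points) with group means (bars) in EC-glom, EC-ptc and EC-art, on linear axes from 0. Dll4 in EC-glom is at 90.5 to 117.0 CPM in control and 207.2 to 350.2 CPM in the injured libraries, while EC-ptc overlaps between groups.

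In whole stroma several Notch genes differed from control, in pools whose makeup by subtype was not alike. Fibro 3 was 95 to 97.4% of stroma in the 3 control libraries with enough cells but 2.05 to 28.8% of UIR and 20.2 to 23.0% of UUO stroma (two-sided exact permutation tests gave p = 0.1, the smallest that 3 against 3 libraries allow, and an adjusted p = 0.180 over all shares compared, which did not pass). The control share rested on few cells and on the cell filters. It was 48.4 to 75.5% with doublets kept (5 control libraries), 61.5 to 100% with at least 1000 UMIs per cell (4) and 0 to 90.2% with up to 50% mitochondrial UMIs (3), while the UIR and UUO shares stayed at 1.72 to 32.3% and 13.8 to 32.6% under these settings. Jag1 in whole stroma was at 9.58, 5.49 and 0 CPM in control, at 61.9, 68.0 and 96.1 CPM in UIR and at 79.8, 42.2 and 85.1 CPM in UUO. With 2 control UMIs, the ratio of pooled levels was 15.6 (exact 95% interval 4.29 to 129.5) and 14.5 (3.98 to 120.3), with adjusted p of 0.000464 and 0.00103 (edgeR). Notch2 had no control UMI and was at 45.3 to 51.9 CPM in UIR and 36.0 to 57.0 CPM in UUO, at least 6.51-fold and at least 6.54-fold higher than a floor of 3 UMIs over the control group (adjusted p = 0.000192 and 0.000340).

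Heyl, a smooth muscle target gene, was at 28.7, 22.0 and 16.7 CPM in control stroma, at 60.5, 58.9 and 69.4 CPM in UIR and at 66.5, 37.8 and 75.3 CPM in UUO (1.64 ± 0.44, adjusted p = 0.0141, and 1.52 ± 0.44, adjusted p = 0.0265, edgeR). Notch3 was at 105.4, 109.8 and 142.3 CPM in control, at 175.0, 212.3 and 338.6 CPM in UIR and at 182.3, 172.3 and 266.1 CPM in UUO. No injured library overlapped the controls, but Notch3 passed only in UIR (1.17 ± 0.31, adjusted p = 0.0120, against 0.88, adjusted p = 0.0640 in UUO). Hes1 fell in UIR, from 172.4, 241.6 and 217.7 CPM to 113.1, 79.6 and 66.1 CPM (-1.18 ± 0.24, adjusted p = 0.00201). In all, 4 of 7 genes were higher and 1 lower in UIR (16.6% of 9928 genes called) and 3 higher in UUO (15.2% called). Of these, Notch2 and Jag1, with 0 and 2 control UMIs, passed the filter on low counts through the injured pools. Of the dissociation list Jun, Junb and Egr1 were higher and Dusp1 lower in both injuries, with a median log2 fold change of 1.56 and 1.51 over 10 genes against 0.13 and 0.12 over all genes, and their part was not tested. All of these Notch calls but Hes1 were lost or turned in direction when cells of up to 50% mitochondrial UMIs or doublets were kept, and were lost with at least 1000 UMIs per cell, while Hes1 was lost under the first of these and at a clustering resolution of 2. Heyl was also lost without N2 or AN1 in both injuries, against the N controls alone, with markers and Notch genes used for clustering and at a resolution of 2, and without N1 or the unnumbered UUO library or with the numbered libraries only in UUO, and Notch3 in UIR without N1, N2 or UIR 2 and at a resolution of 2.

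Within subtypes, values were available for fewer libraries. In Fibro 3, the pericyte-like cells of control stroma, Notch3 was at 105.9 and 100.9 CPM in control libraries N1 and N2, at 105.1 CPM in the 1 UIR library with enough cells and at 61.5, 86.5 and 116.0 CPM in UUO, all overlapping. None of 5 genes passed in UUO by edgeR (0.802% of 5737 genes called), DESeq2 called 0, and Heyl alone had an unadjusted p under 0.05, with 16.8 and 28.9 CPM in control and 60.6 to 81.7 CPM in UUO (1.54 ± 0.52, adjusted p = 0.243). In Fibro 2, Notch3 was at 462.0, 524.1 and 612.0 CPM in UIR and at 639.8, 606.3 and 648.2 CPM in UUO, which overlap, and Jag1 at 154.0 to 174.7 CPM and 115.3 to 258.9 CPM.

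Hes1 in Fibro 2 differed between the injuries. It was at 165.5, 109.8 and 85.8 CPM in UIR and at 305.7, 448.3 and 236.7 CPM in UUO, without overlap, and the log2 difference of UUO from UIR was 1.45 ± 0.25 (adjusted p = 0.00504, edgeR). It was the 1 gene of 6 that passed, where 1.48% of 6435 genes were called. The call passed in every alternative and left-out library tried. Fibro 2 had no control pool, so fits that left out only control libraries or tubular cells could not change it. The dissociation list moved with Hes1: Ier2, Junb and Egr1 of 9 tested were higher in UUO, and the list summed to 805.6 to 1239 CPM in UIR and 1119 to 2040 CPM in UUO. Its part in the Hes1 difference was not tested.

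**Figure D5:**
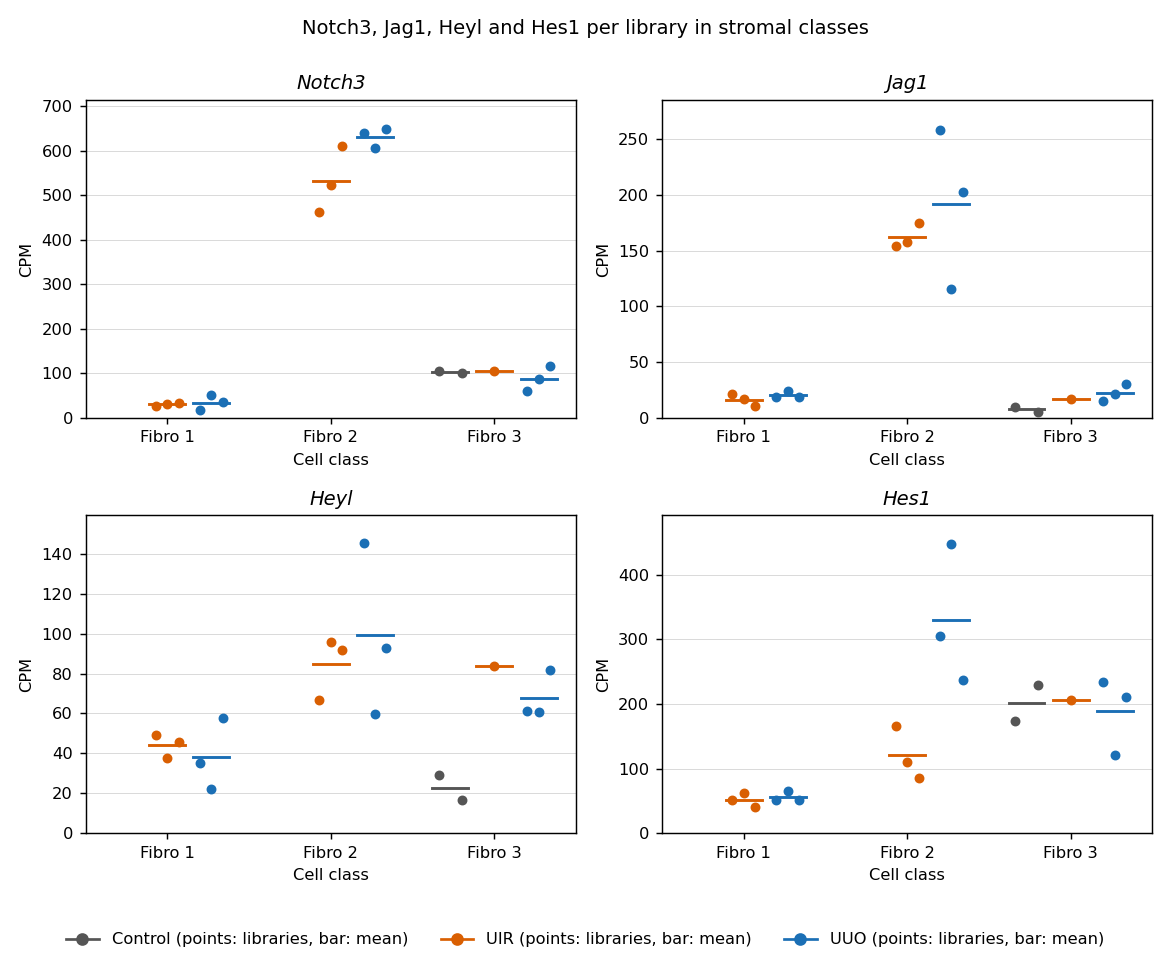
Notch3, Jag1, Heyl and Hes1 in CPM per library (points) with group means (bars) in Fibro 1, Fibro 2 and Fibro 3, on linear axes from 0, with no control value for Fibro 1 and Fibro 2. Notch3 in Fibro 2 is at 462.0 to 648.2 CPM, and Hes1 in Fibro 2 is higher in the 3 UUO libraries.

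Between UUO and UIR, 2 of 61 tests passed, Jag1 in DT and Hes1 in Fibro 2, both higher in UUO. In DT 5.63% of genes were called in this comparison. No Notch gene passed by edgeR in PT (0.103% of genes called), LOH (2.29%), CD-P (5.4%), CD-I (0.573%), frTEC (0%, 0 of 8447 genes, with 156 at an unadjusted p under 0.05), whole endothelium (2.35%), EC-glom (1.98%), EC-ptc (0.341%), EC-art (0.725%), whole stroma (0.927%) or Fibro 1 (0.901%). At an unadjusted p under 0.05 there were 4 in EC-glom, 4 in whole endothelium, 3 in EC-art, 3 in CD-P, 1 each in LOH, EC-ptc and whole stroma, and none in PT, CD-I, frTEC or Fibro 1, while DESeq2 called 0 in each of these classes.

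Other genes of the pathway were counted in a list of 44 genes that holds proteases, γ-secretase subunits, ubiquitin ligases, glycosyltransferases, nuclear cofactors and further ligands and targets. In LOH 6 of 34 tested were higher and 2 lower in UIR, and 10 higher and 2 lower in UUO, with 7 called in both injuries. That is 23.5 and 35.3% of the list, against 30.6 and 36.3% of all genes. In DT 8 of 32 were higher and 1 lower in UIR and 9 higher and 1 lower in UUO, 28.1 and 31.2% of the list against 37.2 and 44.3% of all genes. In CD-P it was 2 and 2 of 30 in UIR and 8 and 6 in UUO, and in CD-I 5 and 0 of 31 in UIR and 6 and 2 in UUO. EC-glom had 2 of 34 higher and 2 lower in UIR and 3 higher and 1 lower in UUO, EC-ptc 0 and 2 higher of 27, EC-art 0 and 1 higher of 30, frTEC 0 and 1 higher of 26, and PT 3 higher and 1 lower of 31 in UIR and 1 higher in UUO. Whole endothelium had 1 of 35 higher in UIR and 3 higher and 1 lower in UUO, and whole stroma 3 higher of 31 in each with 3 lower in UIR and 1 in UUO. The share of the list called exceeded that of all genes by more than a few percentage points in CD-P in UUO (46.7 against 31.5%) and EC-glom in UIR (11.8 against 2.36%), and elsewhere lay near or below it.

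The protease gene Adam10, which makes the first cut of a bound receptor, was higher in LOH, DT and CD-I in both injuries. In UUO it was also higher in CD-P, and in frTEC and EC-ptc, where no Notch gene passed. The Adam10 level in LOH was 18.5 to 40.4 CPM in control, 69.1 to 73.4 CPM in UIR and 87.1 to 90.1 CPM in UUO (log2 fold change 1.03 ± 0.18, adjusted p = 0.000102, and 1.34 ± 0.18, adjusted p = 2.41e-06, edgeR). In DT it was 6.47 to 29.3 CPM in control, 54.8 to 62.5 CPM in UIR and 81.1 to 96.9 CPM in UUO. Dtx4, a Deltex ubiquitin ligase gene, had no UMI in control LOH and was at 17.3 to 19.7 CPM in UIR and 20.9 to 26.5 CPM in UUO, while its relative Dtx1 fell (-3.56 ± 0.79 and -3.12 ± 0.80) on 11 control UMIs, from 0 to 8.80 CPM in control to 0.212 to 0.905 CPM in UIR and 0.370 to 1.044 CPM in UUO, which lie within the control range. In DT Dtx4 had no control UMI and was at 4.17 to 9.68 CPM in UIR and 11.5 to 17.1 CPM in UUO. Neurl3 in DT was at 0 to 4.89, 15.1 to 31.0 and 21.7 to 33.3 CPM in control, UIR and UUO. Dtx4 in CD-P was at 0 to 1.56, 5.99 to 14.8 and 10.6 to 21.4 CPM. The γ-secretase subunit genes split in CD-P, with Ncstn higher (0.60 ± 0.19 and 1.23 ± 0.18) and Aph1c lower (-1.41 ± 0.28 and -1.99 ± 0.30). In CD-I Neurl1a, Neurl3 and Psen2 were higher in both injuries.

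In EC-glom Nrarp, a feedback inhibitor gene that Notch turns on, was at 28.8 to 44.3 CPM in control, 86.0 to 104.8 CPM in UIR and 89.8 to 140.1 CPM in UUO. It rose by 1.44 ± 0.25 (adjusted p = 0.00107, edgeR) and 1.65 ± 0.23 (adjusted p = 2.05e-05). Numb, a Notch antagonist gene, fell from 265.7 to 304.5 CPM to 175.9 to 217.4 CPM in UIR and 155.4 to 159.0 CPM in UUO (-0.62 ± 0.15, adjusted p = 0.0175, and -0.996 ± 0.14, adjusted p = 2.27e-05). Neurl3 was higher in both (1.35 ± 0.25 and 0.90 ± 0.25), as in whole endothelium (0.91 ± 0.19 and 0.93 ± 0.19). The targets Hes1 and Hey1 did not pass in EC-glom. Hes1 was at -0.15 in UIR and 0.11 in UUO (adjusted p = 0.918 and 0.881, edgeR), and Hey1 at -0.16 and 0.55 (adjusted p = 0.940 and 0.363). Nrarp was also called higher in whole endothelium in UUO and DT in UIR, and lower in CD-P in UUO. In whole stroma Hey2, Dtx4 and Nrarp were higher in both, in the same fits whose calls were lost under the settings named above for the stroma, which were not tried on these genes.

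Genes whose pattern over 34 class and group means was most like each Notch gene were ranked by Pearson's r among 11298 genes, as a description of points that share libraries. Heyl was closest to Notch3 (r = 0.884), followed by Lpp and Ppp1r14a. Nova2, Chrm3 and Cdh5 were closest to Notch4 (0.977, 0.969 and 0.969), Nos3 and Sox17 to Jag2 (0.947 and 0.935) and Myct1 and Egfl7 to Dll4 (0.915 and 0.909). Cr1l was closest to Notch1 (0.95), Mark1 to Heyl (0.915), Tspan12 to Hes1 (0.891), E130006D01Rik to Hey1 (0.884), Hspb2 to Notch2 (0.86) and Btg1 to Jag1 (0.839).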

How the data were processed

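The authors deposited raw UMI counts for each of 11 libraries (10x Chromium 3′ v3, cold-active protease suspensions), with 28692 genes by all whitelist barcodes, empty droplets included. Per the file headers the counts were made with Cell Ranger 3.1.0, and the submitters' processing notes name mm10. The paper's methods name a later version, with decontX and doubletFinder applied after counting, which the deposited counts do not carry.

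Cells were barcodes of at least 500 UMIs that differed from empty droplets (false discovery rate 0.01, 10000 simulations) or passed the UMI cutoff set from each library's top 3000 barcodes. At most 30% mitochondrial and 5% hemoglobin UMIs and at least 200 genes were required, and the 7.5% with the highest doublet score were left out. Clustering (2000 variable genes without markers and Notch genes, 40 and then 30 components, Leiden, resolution 1) was named by marker score (at least 1.25, margin 0.5, 3 markers), limits set after the marker tables were seen. UMIs were summed per library and class of at least 20 cells and tested with edgeR 4.0.16 (filterByExpr, TMM, quasi-likelihood, 3 groups in 1 model) with Benjamini-Hochberg adjustment. Scripts were tested on simulated counts. CPM are UMIs scaled to 1000000 per pool. Shares and differences between classes used exact permutation tests, the latter on log2(CPM + 1).

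The 10 genes and all lists were chosen with earlier results of these data known. Genes named are the 10 in every class and, of 44 other pathway genes, at most 3 per class called in the same direction in both models, by the larger fold change. Calls of Adam10 and Nrarp in further classes were added to these. For each of the 10, up to 3 genes most alike in pattern are named. Intervals and floors of 3 counts cover counting error only. Alternatives tried were DESeq2 1.42.0, other scaling, filters and cell limits, clustering, the N or AN control libraries alone, replicate numbers as a block and each library left out. The choices on cells with a stromal UMI, low marker scores and unnumbered libraries were added after seeing the data. Podocytes, immune and unnamed cells were not analysed here. Other tools were R 4.3.3, Python 3.11.15, scipy 1.17.1, scikit-learn 1.9.0 and leidenalg 0.10.2. Promoters were read from RefSeq (GRCm38.p6).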

Additional observations from a re-analysis of the deposited data

Results flagged for a closer look

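Both differences between UUO and UIR were picked out by the test of the difference itself. Jag1 in DT was higher in UUO than in UIR by 0.82 on the log2 scale, and Hes1 in Fibro 2 by 1.45, each in 3 of 3 libraries.

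The change against control differed between neighbouring classes in 6 of the 8 tests made over libraries (exact permutation tests, two-sided, adjusted p = 0.0476, chosen after the values were seen). For Dll4 the log2 level in EC-glom less that in EC-ptc was 1.45 higher in UIR and 1.70 higher in UUO than in control. The level of Notch4 in EC-glom less that in EC-art was 1.06 and 1.15 higher. For Jag1, DT less CD-I was 2.15 and 2.94 higher. The clusters that held most control cells of EC-glom, EC-ptc, DT and CD-I were not those that held most injured cells, while EC-art was made up alike in the 3 groups.

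1 of 23 control groups checked held a library far from the others. Notch4 in EC-art was at 220.1 CPM in control AN2, below the other 4 control libraries at 239.9 to 245.6 CPM and near the highest UUO library at 222.9 CPM. Chance gives such a library in about 1 in 20 groups.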

How the results depend on the processing

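The 46 calls of a gene in a class were recomputed under up to 18 alternatives and with each of 11 libraries left out. They kept their direction and threshold in 654 of 746 alternative values and 465 of 500 values without a library, and 18 calls passed wherever they could be fitted. These 18 include Notch1 in LOH, CD-P and CD-I, Notch3 in LOH and DT and Dll4 in EC-glom in both injuries. At a mitochondrial limit of 15% only 19 of the 46 calls had a value, and 4 of these were lost. The calls in LOH, CD-P and CD-I had no value there, so their dependence on this stricter limit was not tested. The totals also count fits that a setting could not change. Examples are a left-out library without a pool in the class, or tubular cells left out for an endothelial or stromal call. The largest numbers of calls were lost with the N controls alone (17 of 45), with up to 50% mitochondrial UMIs (13 of 36), with the AN controls alone (12 of 37) and with at least 1000 UMIs per cell (12 of 46), while 8 of 46 were lost with the numbered libraries only and 1 of 46 with DESeq2. Several settings left too few cells or named clusters in a class, such as DT in UUO, which could then not be fitted. The number of calls in UIR against control was 8 with the N controls alone, 9 with the AN controls alone, 4 at a mitochondrial limit of 15% (5 classes) and 9 without clusters of a marker score under 2. In UUO against control it was 11, 13, 8 and 13. Between UUO and UIR it was 5 with no filter on low counts, 1 with at least 1000 UMIs and 1 without low-score clusters. Without 1 library the 3 counts were 13 to 15, 17 to 20 and 1 to 3, the last at 1 without UIR 2, the unnumbered UUO library or UUO 2. The cause of these moves was not tested, beyond the fewer classes and tests in some. Jag1 in DT turned to -0.22 in UIR when up to 50% mitochondrial UMIs were allowed. With that limit or with doublets kept, whole-stroma values in UIR turned to -0.23 and -0.10 for Jag1, -0.21 and -0.21 for Heyl and -0.39 and -0.53 for Notch3, and in UUO to -0.42 and -0.29 for Jag1 and -0.35 and -0.19 for Heyl. Replicate numbers were not taken as pairs, since deviations of 5 of 13 same-numbered pairs correlated above 0.1 (range -0.08 to 0.61). UIR and UUO libraries correlated at 0.61 for the unnumbered pair, 0.61 for number 1 and 0.03 for number 2. The fit with the replicate number as a block lost 1 of 46 calls, Jag1 in PT in UIR (edgeR, adjusted p = 0.0573), and gave 14, 20 and 2 calls. The small control pools limit depth: Notch3 in LOH and Notch2 in stroma had 0 control UMIs, for which a floor of 3 stands.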
